A study of Mus musculus with 4 samples.

Results

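The 10 genes described here are imprinted genes of the embryonic growth network, chosen by symbol: Mest, Peg3, Dlk1, Meg3, Cdkn1c, Plagl1, Grb10, Ndn, Nnat and Snrpn. Rows for 9 of the 10 were read from a count table of 23874 genes, and all 9 passed the filter on low counts that left 14263 genes for testing. Meg3, the maternally expressed long non-coding RNA of the Dlk1 locus, was not analysed here. The set was proposed with results of the comparison between stimulated and unstimulated tissue already known, led by the high value of Mest in stimulated tissue. The values of the 9 genes in that comparison are therefore given as a description, without p-values. Counts of them past the threshold used for all genes are given only beside the share of all genes, and nothing is concluded from how many differed.

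RNA was sequenced from engineered neural tissue of the mouse. Neurospheres, which are balls of cultured neural stem cells and their progeny, were set in the basement membrane gel Matrigel and fed a medium with N2, B27 and 20 ng/ml recombinant human bFGF, a growth factor that keeps neural progenitors dividing. In the EF group this tissue was exposed to a 150 mV/mm electric field for 30 min daily over 3 days and then grown for another 7 days without it, while noEF tissue was never stimulated. The libraries used number 2 in each group, while 3 replicates are stated by the labels. The labels give no strain, age or sex and do not say that the replicates were separate cultures, so the spread between them may be technical. The sample labels call both groups engineered tissue, whereas the series' design text speaks of control cells in suspension, and the sample labels are followed here.

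Library totals lay between 33748880 and 34554537 counts, and no library stood apart in depth. Of 8 neural stem cell markers, all averaged above 1 CPM (the count scaled to a common library size, TMM included), led by Fabp7 and Vim, while 5 of 6 microglial markers were at 0 in every library and the other, P2ry12, averaged 0.500 CPM. Of 8 fibroblast and meningeal markers 6 were under 1 CPM, Lum was at 0, and the 2 others were Foxc1 and Ptgds. Of 6 endothelial markers all were under 1 CPM and Cdh5 was at 0.

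Genomic imprinting is the expression of a gene from only the maternal or only the paternal chromosome, set by DNA methylation that is laid down in the germ line and copied at each cell division. Many imprinted genes act on fetal growth, are abundant in embryonic tissues and decline after birth, and several are known to be expressed together in progenitor cells. Paternally expressed genes of this set are Mest, Peg3, Dlk1, Plagl1, Ndn, Nnat and Snrpn. Cdkn1c and Meg3 are maternally expressed, and Grb10 is expressed from the maternal copy in most tissues and from the paternal copy in neurons. Counts per gene do not separate the parental copies, so these data hold no measure of imprinting itself.

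The sequences upstream of the genes show how different the starts of co-described imprinted genes are, and they are given for 6 of the genes whose values are described below. RefSeq (GRCm38.p6) gave 16 upstream windows of 250 bases for 9 of the 10 genes. Capitals mark matches, on either strand, to TGCCGC, the hexamer bound by the imprint-protecting zinc finger protein ZFP57 (reverse complement GCGGCA), to GGGGCCCC, a palindrome bound by PLAGL1, and to CGCATGCG, the core of the NRF1 site. The last was chosen after the sequences had been seen, and no match overlapped another. Gene spans given below come from GENCODE M21, whose starts can differ, and the windows of Mest, Plagl1 and Ndn lie inside those spans. The windows, 5′ to 3′ and ending at the base before the start annotated by RefSeq, are:
Mest, chr6:30737803-30738052, plus strand: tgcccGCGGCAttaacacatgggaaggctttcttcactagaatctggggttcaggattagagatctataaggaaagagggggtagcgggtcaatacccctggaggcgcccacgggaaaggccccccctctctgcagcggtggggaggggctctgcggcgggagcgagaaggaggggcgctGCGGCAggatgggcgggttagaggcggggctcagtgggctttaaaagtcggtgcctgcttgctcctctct
Plagl1, chr10:13090582-13090831, plus strand: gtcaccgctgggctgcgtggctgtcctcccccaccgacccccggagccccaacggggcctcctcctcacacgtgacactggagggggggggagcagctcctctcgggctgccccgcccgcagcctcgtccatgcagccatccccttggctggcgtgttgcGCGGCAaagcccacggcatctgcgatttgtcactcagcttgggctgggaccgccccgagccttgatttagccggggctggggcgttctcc
Peg3, chr7:6730420-6730669, minus strand: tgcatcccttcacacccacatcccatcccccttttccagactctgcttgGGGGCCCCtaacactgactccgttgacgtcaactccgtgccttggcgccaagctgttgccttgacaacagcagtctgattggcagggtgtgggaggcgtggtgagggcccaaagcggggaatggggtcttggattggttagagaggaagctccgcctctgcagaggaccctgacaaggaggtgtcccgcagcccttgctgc
Nnat, chr2:157559828-157560077, plus strand: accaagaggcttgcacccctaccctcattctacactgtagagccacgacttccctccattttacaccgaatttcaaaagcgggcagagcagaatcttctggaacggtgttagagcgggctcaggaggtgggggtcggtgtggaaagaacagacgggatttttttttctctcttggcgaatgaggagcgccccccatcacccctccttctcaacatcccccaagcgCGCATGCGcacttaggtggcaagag
Ndn, chr7:62348027-62348276, plus strand: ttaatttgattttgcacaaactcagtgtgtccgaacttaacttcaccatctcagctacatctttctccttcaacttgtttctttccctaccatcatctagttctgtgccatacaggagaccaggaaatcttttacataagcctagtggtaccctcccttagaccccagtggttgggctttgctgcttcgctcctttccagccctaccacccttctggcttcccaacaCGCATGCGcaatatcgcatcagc
Snrpn, chr7:60140226-60140475, minus strand: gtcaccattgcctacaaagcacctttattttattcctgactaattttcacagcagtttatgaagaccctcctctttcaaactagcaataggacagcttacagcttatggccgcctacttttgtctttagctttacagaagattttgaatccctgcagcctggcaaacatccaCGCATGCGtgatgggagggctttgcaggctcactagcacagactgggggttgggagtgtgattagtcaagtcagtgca

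The Mest window holds 2 matches to TGCCGC, the Plagl1 window 1, and 1 window of Meg3 (not shown) 1. TGCCGC was found in 4 of the 16 windows (25.0%), from 3 genes, against 8.68% of all 32851 windows of the same length. Mest has 2 of these windows, which overlap almost wholly and hold the same matches, so they are not independent. The Peg3 window has the only match to GGGGCCCC among the 16, a motif present in 0.889% of all windows. CGCATGCG occurred in the windows of Nnat, Ndn and Snrpn, in 5 of the 16 windows, against 1.55% of all windows. The 3 Snrpn windows with this match resemble one another and are not independent. The ratio of observed to expected CpG was 0.618 in the Mest window, 0.642 in Nnat, 0.618 in Plagl1, 0.411 in Ndn, 0.351 in Peg3 and 0.227 in the Snrpn window shown. The median was 0.432 over the 16 windows and 0.374 over all windows. The first window of Grb10, at 0.983, exceeded 93.4% of all windows. A match or its absence in 250 bases is a description of these letters and says nothing of binding in this tissue.

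Levels can be compared between genes only per length, and the counts scaled to both exon length and library size (RPKM) spread over a wide range. Nnat was the most abundant, at 262 ± 45.3 RPKM (SD over 4 libraries, both groups), a level above that of 98.9% of tested genes. Mest followed at 97.3 ± 27.3 RPKM (96.2%), then Snrpn at 36.9 ± 2.22 and Ndn at 13.4 ± 1.62 RPKM. Peg3 stood at 5.04 ± 0.630 RPKM, close to the median tested gene. Below it came Cdkn1c at 2.99 ± 0.852, Plagl1 at 2.46 ± 0.258, Dlk1 at 0.754 ± 0.251 and Grb10 at 0.528 ± 0.0798 RPKM, the last at the 14.7th percentile. The ranges of Cdkn1c and Plagl1 overlapped, as did those of Dlk1 and Grb10, and both of these orders turned when the longest transcript replaced the union of exons as length. All other neighbours in the order were separate in every library.

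**Figure D1:**
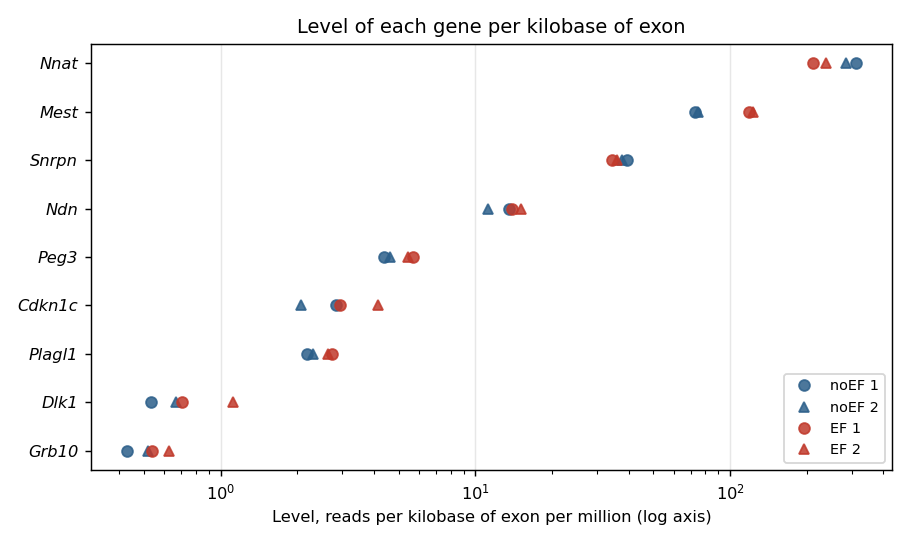
Level per kilobase of exon (RPKM, log axis) of each of the 9 genes in the 4 libraries; circles are replicate 1, triangles replicate 2, red EF and blue noEF. Nnat and Mest lie highest, with mean levels of 262 and 97.3 RPKM, and Dlk1 and Grb10 lie lowest and overlap.

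Among the genes tied to growth and metabolism, Mest differed most. Mest (mesoderm specific transcript, ENSMUSG00000051855, GRCm38 chromosome 6, 30723547 to 30748465, plus strand, 11 annotated transcripts) encodes a hydrolase-like protein of the endoplasmic reticulum and is known as a marker of growing adipose and mesodermal tissue. It was measured at 468 and 487 CPM in EF 1 and EF 2 and at 286 and 296 CPM in noEF 1 and noEF 2. Both EF libraries lay above both noEF libraries, as in 27.6% of tested genes, and the replicates of each group were close together. The EF mean of 477 ± 13.4 CPM was 1.64-fold the noEF mean of 291 ± 6.98 CPM (SD, n = 2 per group), with a log2 fold change of 0.71 (SE 0.08). Exons of Mest share 912 bases with Copg2 on the opposite strand, and no strand setting is given, so reads from that stretch cannot be assigned to either gene. The microRNA gene Mir335 lies within Mest, at chr6:30741299-30741396 on the same strand. Its 5′ arm, shown because it shares the transcript of Mest and with the seed (bases 2 to 8) in capitals, was not measured by these libraries of polyadenylated RNA:
mmu-miR-335-5p: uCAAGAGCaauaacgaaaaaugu

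Grb10 and Dlk1 were both rare. Grb10 (ENSMUSG00000020176, chromosome 11, 11930508 to 12038683), an adaptor that dampens insulin and IGF receptor signalling, had 4.87 and 5.67 CPM in EF against 3.90 and 4.73 CPM in noEF. Its log2 fold change of 0.29 had an SE of 0.27, so the difference was about as large as its error. It was 0.16 without noEF 1 and 0.18 without EF 2, but 0.43 without noEF 2 and 0.39 without EF 1. Dlk1 (ENSMUSG00000040856, chromosome 12, 109452823 to 109463336), a transmembrane relative of the Notch ligands that is made by progenitor cells, had 3.98 and 6.30 CPM in EF and 3.01 and 3.78 CPM in noEF. EF 2 was the high library and EF 1 lay just above noEF 2. Its log2 fold change was 0.60 (SE 0.31). Without EF 2 it was 0.23 and without EF 1 it was 0.89. Dlk1 had between 98 and 220 counts per library, which limits its precision.

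The nuclear regulators of the set are Plagl1, Peg3 and Cdkn1c. Plagl1 (ENSMUSG00000019817, chromosome 10, 13060504 to 13131694) encodes a zinc finger transcription factor known to act on other imprinted genes, among them Cdkn1c and Dlk1. It had 21.3 and 20.7 CPM in EF and 17.1 and 18.0 CPM in noEF, a log2 fold change of 0.26 (SE 0.15). Peg3 (ENSMUSG00000002265, chromosome 7, 6703892 to 6730431), a large zinc finger protein linked to growth and cell survival, had 76.1 and 72.3 CPM in EF and 58.4 and 61.8 CPM in noEF. The groups did not overlap for either gene, as in 54.4% of tested genes, and nothing is read from that. Peg3 had a log2 fold change of 0.30 (SE 0.10). With each library corrected for gene length and GC content, Peg3 stood at 0.18 and Plagl1 at 0.13. Cdkn1c (ENSMUSG00000037664, chromosome 7, 143458339 to 143461050), the CDK inhibitor p57 that holds progenitors out of the cell cycle, had 5.99 and 8.42 CPM in EF and 5.78 and 4.22 CPM in noEF. EF 1 and noEF 1 were nearly alike, and the log2 fold change was 0.53 (SE 0.26). It went to 0.26 without EF 2 and 0.32 without noEF 2, and to 0.75 without EF 1 and 0.77 without noEF 1.

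The genes best known from brain went in both directions. Ndn (ENSMUSG00000033585, chromosome 7, 62346569 to 62350262), the MAGE family protein necdin of postmitotic neurons, had 51.5 and 55.6 CPM in EF and 50.0 and 41.4 CPM in noEF. EF 1 and noEF 1 were close, and the log2 fold change of 0.23 (SE 0.12) was 0.10 without noEF 2 and 0.37 without noEF 1. Snrpn (ENSMUSG00000102252, chromosome 7, 59982495 to 60140219), which encodes the splicing protein SmN, had 74.0 and 77.8 CPM in EF and 85.1 and 81.6 CPM in noEF. Its log2 fold change of -0.13 (SE 0.09) was the smallest in size of the 9, and with library totals as scaling it was -0.05. Its exons share 216 bases with Snurf on the same strand, which was given 0 or 1 count per library.

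Nnat showed the largest value below 0. Nnat (neuronatin, ENSMUSG00000067786, chromosome 2, 157560078 to 157562522), a small membrane proteolipid of developing brain, had 388 and 434 CPM in EF and 571 and 523 CPM in noEF. Both EF libraries were lower than both noEF libraries, as in 26.8% of tested genes. The EF mean of 411 ± 32.2 CPM was 1.33-fold lower than the noEF mean of 547 ± 34.0 CPM (SD, n = 2 per group), with a log2 fold change of -0.41 (SE 0.09). It went to -0.33 without EF 1, to -0.49 without EF 2 and to -0.21 after correction for gene length and GC content. The most and the second most abundant of the 9 genes thus had opposite signs, and Nnat exceeded Mest in RPKM in every library.

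**Figure D2:**
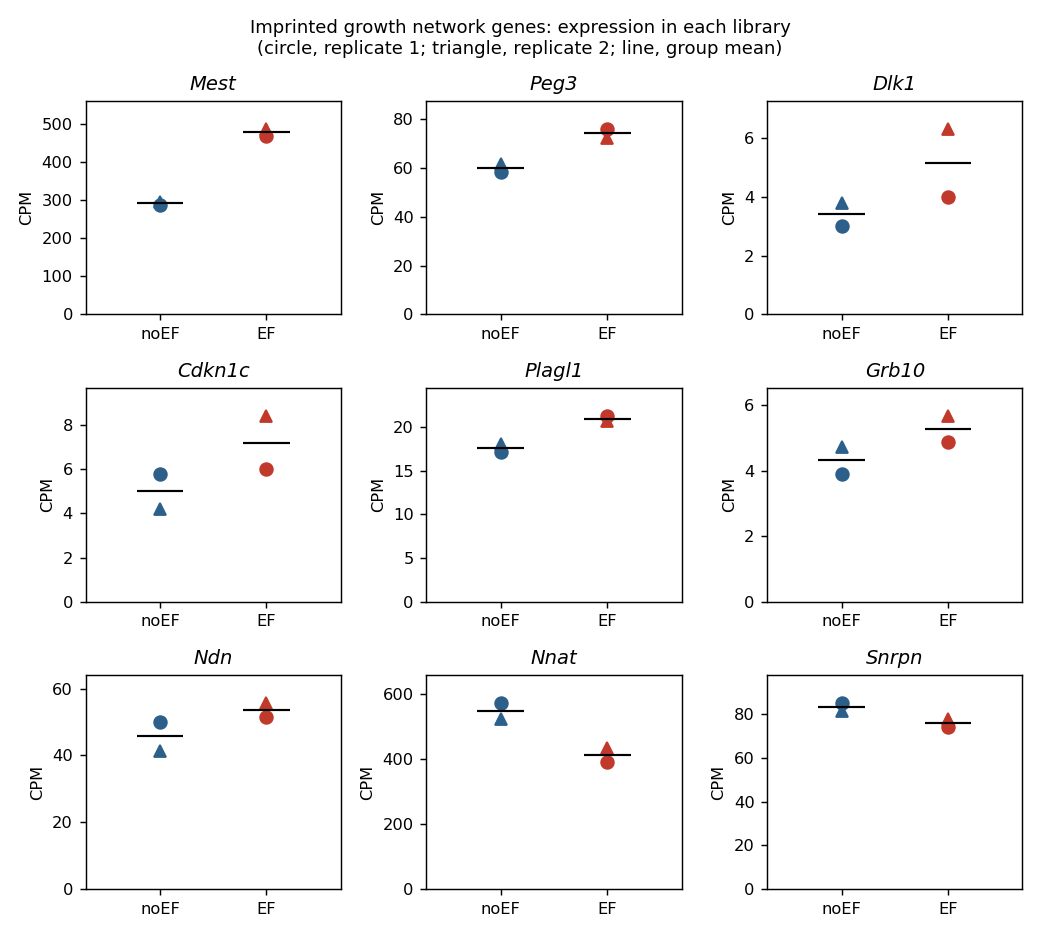
Expression (CPM on library sizes scaled by TMM, axes from 0) of the 9 genes in noEF (blue) and EF (red) libraries; circles are replicate 1, triangles replicate 2 and lines group means. Mest is at 468 and 487 CPM in EF against 286 and 296 in noEF, Nnat has the opposite order, and the low genes Dlk1, Cdkn1c and Grb10 show wide replicates.

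Over the 9 genes, 7 had a log2 fold change above 0 and 2 below, with a median of 0.29. The median of all 14263 tested genes was 0.01. At an adjusted p under 0.05 by edgeR's quasi-likelihood test over all tested genes (a call), 1 of the 9 genes, Mest, was past the threshold upward and 1, Nnat, downward. These 2 are no test of the set. Calls made up 8.82% of tested genes, 3.83% higher and 4.99% lower. When libraries were scaled by their totals instead of TMM, the split over all genes turned from 546 higher and 712 lower to 1138 higher and 505 lower, and of the 9 genes Mest and Peg3 were then past the threshold upward and Nnat downward. Without EF 1 the counts over all genes were 217 higher and 337 lower. In all 9 genes the groups did not overlap, as in 54.4% of tested genes. In 7 of the 9 genes both EF libraries lay above both noEF libraries, as in 27.6% of tested genes, and in 2 both lay below, as in 26.8%. Nothing is read from these counts, since the genes were proposed with this comparison in view.

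Of the other tested imprinted genes in the clusters of these 9 genes, Cd81 was the only one called by edgeR. Next to Mest, the maternally expressed coatomer gene Copg2 was at -0.07 on the log2 scale (SE 0.09; adjusted p = 0.656 by edgeR), and Klf14 did not pass the filter. Beside Peg3, Zim1 was at 1.05 (SE 0.51) and Usp29, which starts beside Peg3 in the opposite direction, at -1.76 (SE 0.94). Both were below 2.5 CPM in every library and neither was called (edgeR adjusted p = 0.227 and 0.277). Around Dlk1, Dio3 was at 0 in every library and Rtl1 had 19 counts in noEF 2 and 0 in the others.

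In the cluster of Cdkn1c, Cd81 was lower in EF and its neighbours were not called. Cd81 encodes a tetraspanin of the cell surface whose imprinting is known from placenta. It had 1386 and 1450 CPM in EF and 1870 and 1685 CPM in noEF. Its log2 fold change was -0.33 (SE 0.08; adjusted p = 0.0231 by edgeR). The groups did not overlap, as in 54.4% of tested genes. Of 13 alternatives 8 kept the call of Cd81. The lowest adjusted p, 2.24e-04 by edgeR, came from a crossed replicate block, which was added after the data were seen. The call was lost without EF 1, without EF 2 and without noEF 1. It was also lost with library totals (edgeR adjusted p = 0.0670) and with the replicate number as a block (edgeR adjusted p = 0.0741). Nap1l4, a histone chaperone gene, went the other way at 0.27 (SE 0.08, edgeR adjusted p = 0.0565), and 6 of its 13 alternatives called it higher. Tssc4 was at -0.06. Slc22a18 was at 0.95 with an SE of 0.71, and Phlda2, a placental growth restrainer, had at most 6 counts.

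Phactr2 next to Plagl1 was at 0.09 and Ddc next to Grb10 at -0.10, and neither was called. Blcap, whose span holds Nnat on the opposite strand, was at -0.04 (SE 0.10, edgeR adjusted p = 0.860), with no shared exon bases. In the cluster of Ndn and Snrpn, the paternally expressed genes Peg12 and Mkrn3 were at 0.50 (SE 0.19) and 0.43 (SE 0.27), and the ubiquitin ligase gene Ube3a, whose maternal copy is the active one in neurons, was at 0.25 (SE 0.10). None of these was called (edgeR adjusted p = 0.120, 0.360 and 0.121), and Magel2, a relative of Ndn, was at 0 in every library. A count of 0 allows up to 3 counts per library, or between 0.0840 and 0.0922 CPM, for counting error only.

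**Figure D3:**
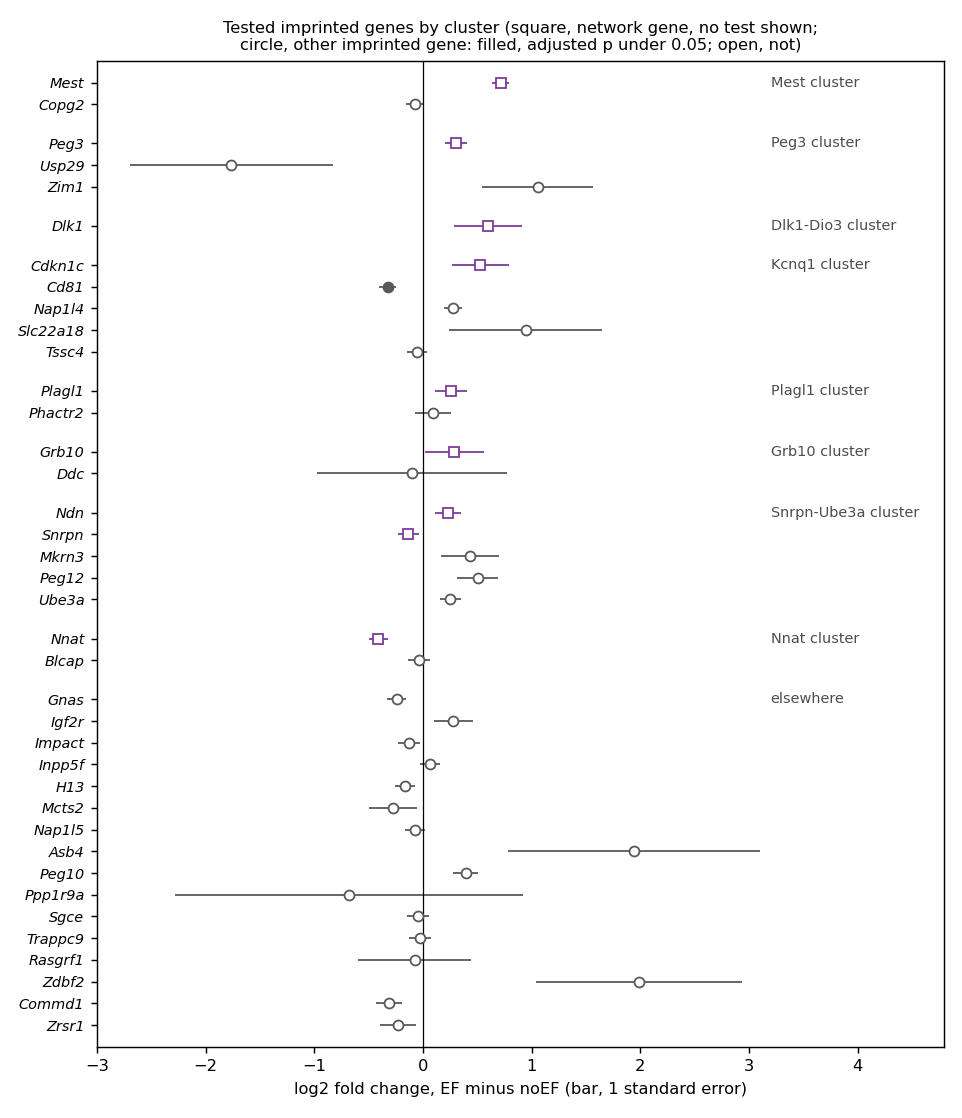
Log2 fold change, EF minus noEF, with 1 standard error for the 9 network genes (squares) and 29 other tested imprinted genes (circles), ordered by cluster; filled circles passed an adjusted p of 0.05, and squares carry no test. The squares of Mest and Nnat lie at 0.71 and -0.41, the filled circle is Cd81 at -0.33, and wide bars belong to genes with few counts.

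A wider list of 52 other imprinted genes gave rows for 44, of which 29 were tested, 15 did not pass the filter and 8 of these 15 had no count. By edgeR's quasi-likelihood test 0 were called higher and 1, Cd81, lower, beside 3.83% higher and 4.99% lower of all tested genes. At an unadjusted p under 0.05 by edgeR the counts were 4 higher and 3 lower of 29. Over all 14263 tested genes they were 1607 higher and 1786 lower, so nothing is read from them. DESeq2 called 2 higher, limma-voom called 1 higher, and each called 1 lower. With library totals as scaling, edgeR called 3 higher and 0 lower. Over these 29 genes the median log2 fold change was -0.05, against 0.01 for all tested genes and 0.29 for the 9 network genes. The network genes were proposed with this comparison in view, so nothing is read from their distance to the 29. Values of the 13 paternally expressed genes had a median of -0.07 and those of the 16 maternally expressed genes a median of -0.04. Peg10, a retrotransposon-derived gene of placenta and embryo, was the nearest to a call among the paternally expressed ones, with 101 and 111 CPM in EF, 70.7 and 90.8 CPM in noEF. Its log2 fold change was 0.39 (SE 0.12; adjusted p = 0.0566 by edgeR). It was named after its value was seen, and 8 of its 13 alternatives called it.

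Igf2, the growth factor most often named with this network, was listed at 0 in all 4 libraries. That 0 is not a full measure of its transcript. Of its 5723 exon bases, 3596 are shared with the read-through model Gm49394 on the same strand. The unshared bases were given no count either, and how reads were counted is not known. Gm49394 had 41 and 47 counts in EF and 50 and 34 in noEF, groups that overlapped. The growth factor receptor gene Igf2r, which clears IGF2 from the cell surface, had 22.4 and 16.3 CPM in EF and 14.7 and 17.2 CPM in noEF and was not called (0.28, SE 0.18).

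Some genes that copy or protect the methylation of imprints were higher in EF. Of 25 such genes 20 were tested, 4 were called higher and 0 lower by edgeR (0 lower also at an unadjusted p under 0.05, by DESeq2 and by limma-voom). The share of 4 in 20 stands beside 3.83% of all tested genes called higher, and the median of the 20 was 0.20 against 0.01. This list was also chosen with earlier results of these data known, so its share and median are a description only. With library totals as scaling 6 were called higher and 0 lower. Hells, a chromatin remodeller needed for DNA methylation, had 24.1 and 22.7 CPM in EF and 9.77 and 10.1 CPM in noEF. It was 2.36-fold higher in EF, or 1.24 on the log2 scale (SE 0.16; adjusted p = 2.64e-04 by edgeR). Uhrf1, which recruits the maintenance methyltransferase to newly copied DNA, had 56.2 and 47.3 CPM in EF and 27.0 and 30.6 CPM in noEF (0.85, SE 0.13, edgeR adjusted p = 0.00113). Dnmt1, that methyltransferase, had 91.8 and 88.1 CPM in EF against 62.3 and 55.0 CPM in noEF (0.62, SE 0.10, edgeR adjusted p = 0.00166). These 3 genes kept their call in each of 13 alternatives.

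Arid4b, a chromatin gene linked to the imprint of the Snrpn domain, was the remaining called gene, at 0.46 (SE 0.13, edgeR adjusted p = 0.0454). It kept the call in 8 of 13 alternatives. The lowest adjusted p, 0.0114 by edgeR, came from the crossed replicate block, which was added after the data were seen. Arid4b lost the call without EF 1, without EF 2, without noEF 1 and with the replicate block. It also lost the call after correction for length and GC content, where its log2 fold change was 0.30. The imprint-protecting zinc finger genes showed no call: Zfp57 was at 0.00 (SE 0.30) and Zfp445 at 0.04 (SE 0.11). Their partner Trim28, a corepressor, was the most abundant of the Zfp57, Zfp445 and Trim28 group at 43.0 RPKM and stood at 0.11 (SE 0.08). The de novo methyltransferase gene Dnmt3a was at 0.31 (SE 0.12, edgeR adjusted p = 0.112), and Dnmt3l, Dppa3, Zfp42, Ctcfl and Nlrp2, known from germ cells and early embryos, were at 0 in every library.

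**Figure D4:**
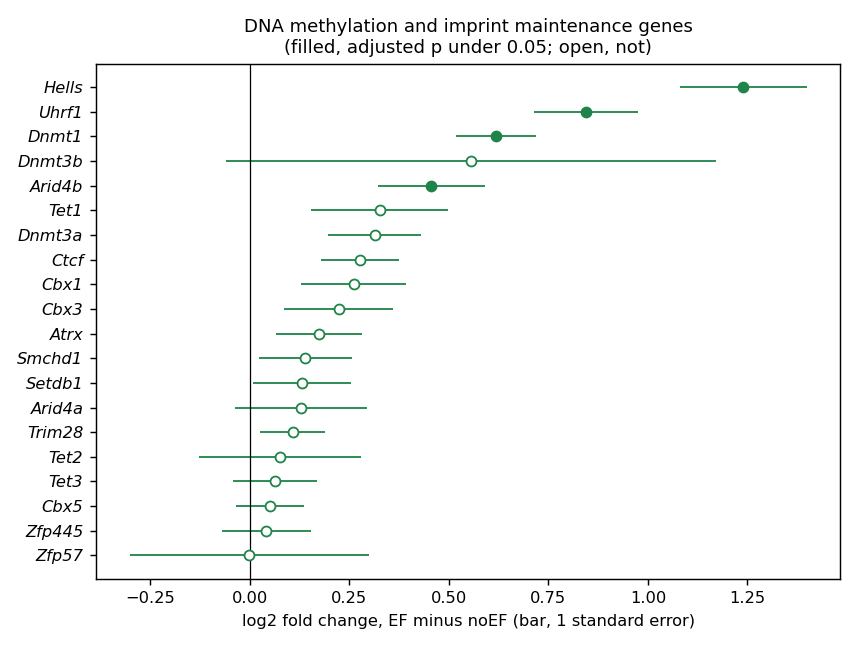
Log2 fold change, EF minus noEF, with 1 standard error for 20 tested DNA methylation and imprint maintenance genes; filled circles passed an adjusted p of 0.05. Hells (1.24), Uhrf1 (0.85), Dnmt1 (0.62) and Arid4b (0.46) are filled, and Zfp57 lies at 0.00.

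Other measures moved with the same libraries. All 8 of a short list of cell cycle genes were called higher in EF by edgeR, with log2 fold changes from 0.33 to 1.03. Of all tested genes 3.83% were called higher. This list too was chosen with earlier results of these data known, so its count is a description only. The summed level of 8 neural stem cell markers was 5015 and 5319 CPM in EF and 6785 and 6405 CPM in noEF, most of it from Fabp7 and Vim. Fabp7 and Sox1 were called lower and the other 6 were not called. Of these 6, Nes was at 0.14, Pax6 at 0.12 and Msi1 at 0.01 on the log2 scale. Sox2 was at -0.27, Vim at -0.22 and Prom1 at -0.40. Of 6 astrocyte markers 2 were called lower. Gfap, the intermediate filament gene of astrocytes and neural stem cells, had 237 and 241 CPM in EF and 641 and 671 CPM in noEF (-1.45, SE 0.08, edgeR adjusted p = 1.06e-07), and the water channel gene Aqp4 was at -0.52 (SE 0.10, edgeR adjusted p = 0.00405). The summed astrocyte markers overlapped between the groups, at 4336 and 4032 CPM in EF and 4224 and 4488 CPM in noEF. Most of that sum came from Slc1a3, which was not called and was at 0.16 on the log2 scale. Aldh1l1 was at 0.03, S100b at -0.02 and Slc1a2 at -0.08. Pdgfra, a marker of oligodendrocyte precursors, was called lower (-0.52, SE 0.15, edgeR adjusted p = 0.0396) and the mural marker Acta2 higher (1.17, SE 0.31, edgeR adjusted p = 0.0309). The summed fibroblast and meningeal markers were at 107 and 126 CPM in EF and 183 and 166 CPM in noEF, carried by Ptgds, which was called lower. The 7 neuronal markers summed to 568 and 545 CPM in EF and 459 and 536 CPM in noEF, with 0 called by edgeR and Stmn2 at 0 in every library. Map2 made up most of that sum, at 529 and 497 CPM in EF and 411 and 481 CPM in noEF (0.20), while Dcx was at -0.46, Snap25 at -0.53, Syn1 at -0.19 and Rbfox3 at -0.18 on the log2 scale. The part of these measures in the values of Mest, Nnat and the other imprinted genes was not tested. Nor was their part in the values of the imprint maintenance genes, Hells, Uhrf1 and Dnmt1 among them. In bulk RNA, fewer cells of a type and less RNA per cell cannot be told apart.

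Among the genes most like Mest across the 4 libraries were St6galnac5, Ckap2, Ccna2 and Nup188. Likeness was the Euclidean distance of log2 CPM centred on each gene's mean, among 8990 named genes of at least 10 CPM, and these distances ran from 0.0488 to 0.0744. Ccna2, a cyclin of S phase and mitosis, had 125 and 127 CPM in EF against 72.5 and 77.9 CPM in noEF. Ckap2 is a spindle protein of dividing cells. Of the 9 genes Dlk1 had the next largest log2 fold change, and its nearest genes were Peg12, Donson, Tada1, Urb2 and Skp2, at distances from 0.170 to 0.297. Peg12, the first of them, is itself imprinted and had 13.8 and 19.4 CPM in EF and 11.0 and 12.5 CPM in noEF, so that EF 2 was its high library as it was for Dlk1. With 4 libraries such a likeness is a description only.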

How the data were processed

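Polyadenylated RNA of EF and noEF tissue was sequenced in 2 libraries each, grouped by sample title. The deposited table holds unscaled counts per gene, as its whole-number values show. The submitters' processing notes name HISAT2 2.0.4, StringTie 2.2.1, DESeq2 1.44.0 and GRCm38 without role or order. How reads were counted, with which annotation and strand option, is not given in the sources used here.

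Genes were kept by filterByExpr with a minimum count of 10 and a minimum total of 15. The robust quasi-likelihood F test of edgeR 4.0.16 (R 4.3.3), with TMM scaling, was run on all 4 libraries. P-values were adjusted by Benjamini-Hochberg over 14263 genes, with calls at 0.05. Standard errors are |log2 fold change| / √F. The fits were tested on simulated counts. RPKM used the union of GENCODE M21 exons. At totals of 33748880 to 34554537 counts, precision is limited for the genes with few counts. No replicate was a copy of the other (chi-square per degree of freedom 18.7 in EF, 19.8 in noEF).

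The genes and lists were chosen with earlier results of these data known. Named genes are the 10 network genes, called genes of the lists of other imprinted and imprint maintenance genes, uncalled genes of the same clusters, and the 5 genes nearest to Mest and to the gene with the next largest change, of which 1 is not reported here. Other names were added after their values were seen. Alternatives were other scalings (DESeq2 size factors, library totals), no filter, and a filter at 1 CPM in at least 2 libraries. Others were the Wald test of DESeq2 1.42.0, voom (limma 3.58.1), a replicate block and correction for length and GC content (mgcv 1.9.3). Each library was also left out in turn. A crossed replicate block, added after seeing the data, is counted among the alternatives.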

Additional observations from a re-analysis of the deposited data

How the results depend on the processing

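The log2 fold change of Mest ran from 0.69 to 0.80 over 13 alternatives, a description only, since this value led the choice of the genes. Over all genes the main counts were 546 higher and 712 lower. Library totals gave 1138 and 505, no filter gave 915 and 1203, and leaving out 1 library gave 217 to 790 and 337 to 1065. Of the network genes, 1 higher and 1 lower were past the threshold, which supports nothing for the same reason. Library totals and no filter each gave 2 higher (Mest and Peg3), and after correction for length and GC content 0 were lower. Leaving out 1 library gave 0 to 1 lower. Of the other imprinted genes, 0 higher and 1 lower were called. The higher count was 3 with library totals, 3 with no filter, 2 with at least 1 CPM in 2 libraries, 2 with DESeq2, 1 with limma-voom, 1 with the replicate block, 1 after correction for length and GC content, and 0 to 3 without 1 library. The lower count was 0 with library totals, 3 with no filter, 0 with the replicate block, 2 after correction for length and GC content, and 0 to 3 without 1 library. The imprint maintenance counts stayed between 3 and 6 higher, with 0 lower in each alternative. The median level of the network genes was 5.04 RPKM and moved to 7.72 RPKM with the longest transcript as length. The cause of these shifts was not tested.

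The replicate numbers of the sample titles are shared by the groups, whereas the library names are not numbered alike in EF and noEF. The labels do not say that the replicate numbers pair cultures, and deviations of same-numbered libraries had a correlation of -0.15. With the replicate block 410 genes were higher and 568 lower, and of the called imprinted and imprint maintenance genes, Cd81 and Arid4b missed the threshold. The crossed pairing, added after seeing the data, gave 1120 higher and 1505 lower genes, 2 higher network genes, and 3 higher and 3 lower other imprinted genes. Without 1 library the lone sample of its group is assumed to vary like the other group. Depth limits Dlk1, Grb10 and Cdkn1c, which had 98 to 294 counts per library.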

Other observations

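Ppp1r9a, an actin-binding scaffold gene of synapses in the imprinted Peg10 and Sgce cluster, had 1417 counts in EF 1, 1151 in noEF 1 and 1095 in noEF 2 but 92 in EF 2. Its neighbours Peg10 and Sgce showed no such gap, with 3604 and 3869 counts of Peg10 and 3523 and 3083 counts of Sgce in EF 1 and EF 2. The fitted log2 fold change of Ppp1r9a, -0.68 (SE 1.60), was not called by edgeR, and it was called lower when EF 1 was left out.

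Commd1 and Zrsr1 share 412 exon bases on opposite strands and stood at -0.31 (SE 0.12) and -0.23 (SE 0.16) on the log2 scale, neither called by edgeR. Gnas, which encodes the stimulatory G protein alpha subunit, was the most abundant other imprinted gene by CPM after averaging over libraries, with 1898 and 2166 CPM in EF and 2496 and 2311 CPM in noEF. It was not called by edgeR (-0.24, SE 0.09), and 4 of its 13 alternatives called it lower. Zdbf2, a paternally expressed zinc finger gene, had 28 and 41 counts in EF and 14 and 2 in noEF and was not called (1.99, SE 0.95).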
